A study of Rattus norvegicus with 12 samples.

Results

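The 7 genes described here, Fkbp5, Zbtb16, Ddit4, Sgk1, Tsc22d3, Cdkn1a and Hif3a, are known targets of the glucocorticoid receptor. They were chosen by name, with their course in these data already known, for a level that stood high at 3 h after nerve injury. All 7 were among the 29623 genes tested, and all 7 passed the filter on dim probes. The label holds for 5 of them: Fkbp5, Zbtb16, Ddit4, Tsc22d3 and Cdkn1a had their highest mean at 3 h. Sgk1 had its highest mean at 0.5 h and Hif3a at 9 h.

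The tissue was the fourth to sixth lumbar dorsal root ganglia of male Sprague-Dawley rats, the ganglia that hold the sensory neurons of the sciatic nerve. Under anaesthesia with trichloroacetaldehyde monohydrate, magnesium sulfate and sodium pentobarbital, a stretch of the left sciatic nerve was cut out at the mid-thigh of every rat, and ganglia were taken 0.5, 3, 6 or 9 h later. The 24 rats were divided into groups of 6, and 3 one-colour Agilent arrays were hybridised per time, 12 in all. Which rats' RNA went onto which array is not given in the labels, so the p-values speak to the spread between arrays, which may in part be technical. There is no uninjured or sham-operated group in the labels used here, so every rat had the anaesthesia and the operation, and the earliest time, 0.5 h, served as the reference. Defining markers of sensory neurons (Prph, Tubb3, Calca, Scn10a and 6 more) were detected well above background on every array, 10 of 10.

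The glucocorticoid receptor, encoded by Nr3c1, is held in the cytoplasm by Hsp90 chaperones together with co-chaperones such as Fkbp4 and Fkbp5. When a steroid such as corticosterone binds, the receptor enters the nucleus, binds DNA as a dimer at paired half-sites and raises or lowers transcription of its targets. Sensory neurons and the glia around them both carry the receptor, and many of its targets feed back on the hormone signal, on growth signalling or on inflammation.

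The members were read by 12 probes of 60 bases, and those shown here are the ones that bear on whether 2 stretches of a transcript gave the same course (Fkbp5, Zbtb16, Tsc22d3), or that were the single probe of a gene (Ddit4, Hif3a). They are printed 5′ to 3′ as the scanner files give them, in lower case throughout because no position within them is singled out. Coordinates are those of the file headers on the rat build rn4. No annotation of that build was used, so exon and UTR positions are not given.
Fkbp5, second probe: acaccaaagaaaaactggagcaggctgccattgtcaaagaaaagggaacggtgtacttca
Zbtb16, first probe: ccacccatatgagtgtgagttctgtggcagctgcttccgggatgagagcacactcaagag
Zbtb16, second probe: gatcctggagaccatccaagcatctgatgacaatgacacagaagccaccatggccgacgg
Tsc22d3, second probe: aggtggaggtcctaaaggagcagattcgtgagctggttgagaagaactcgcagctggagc
Ddit4, single probe: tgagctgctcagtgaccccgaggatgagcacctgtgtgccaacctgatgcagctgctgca
Hif3a, single probe: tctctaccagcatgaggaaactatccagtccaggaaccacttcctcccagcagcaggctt
The Fkbp5 probe lies at chr20:6647361-6647420 on the minus strand, and the first Fkbp5 probe, whose values are used for the gene, lies at chr20:6637600-6637659. The Zbtb16 probes lie at chr8:51934505-51934564 and chr8:52091263-52091322 on the minus strand. Tsc22d3 was read at chrX:128337877-128337936 by the probe shown and at chrX:128336564-128336623 by the probe used, both on the minus strand. Ddit4 was read at chr20:27253523-27253582, Hif3a at chr1:77377554-77377613 and Sgk1 at chr1:23501718-23501777, all on the minus strand. Cdkn1a was read on the plus strand at chr20:7386596-7386655, and by a dimmer probe at chr20:7385506-7385565.

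Levels below are log2 signals, with 0 set at the 75th percentile of each array's spots, and differences are differences of these log2 levels. Because a member's stand at 3 h was part of why it was selected, its differences with 3 h are a description and carry no test. Differences among 0.5, 6 and 9 h were tested with limma over all 29623 genes, with Benjamini-Hochberg adjustment, and called at an adjusted p under 0.05.

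Against 0.5 h, the 3 h level was higher on every array for 5 of the 7 genes, where 20.7% of all genes showed this. From 3 h to 6 h all 7 genes were lower with no overlap of arrays, where 21.9% of all genes showed this. By 9 h, 5 of the 7 (Fkbp5, Zbtb16, Ddit4, Sgk1 and Tsc22d3) lay below 3 h on every array, where 11.7% of all genes did. For Fkbp5, Zbtb16, Ddit4 and Tsc22d3 all 3 h arrays lay above all 9 other arrays, which 3.96% of all genes did. Since these contrasts entered the choice of the genes, the shares are given as background only. From 0.5 h to 3 h the median difference of the 7 was 0.72, then -0.82 from 3 h to 6 h, while that of all genes was 0.02 and -0.07. In tissue that mixes cell types, fewer cells of a type and less RNA per cell cannot be told apart.

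**Figure D1:**
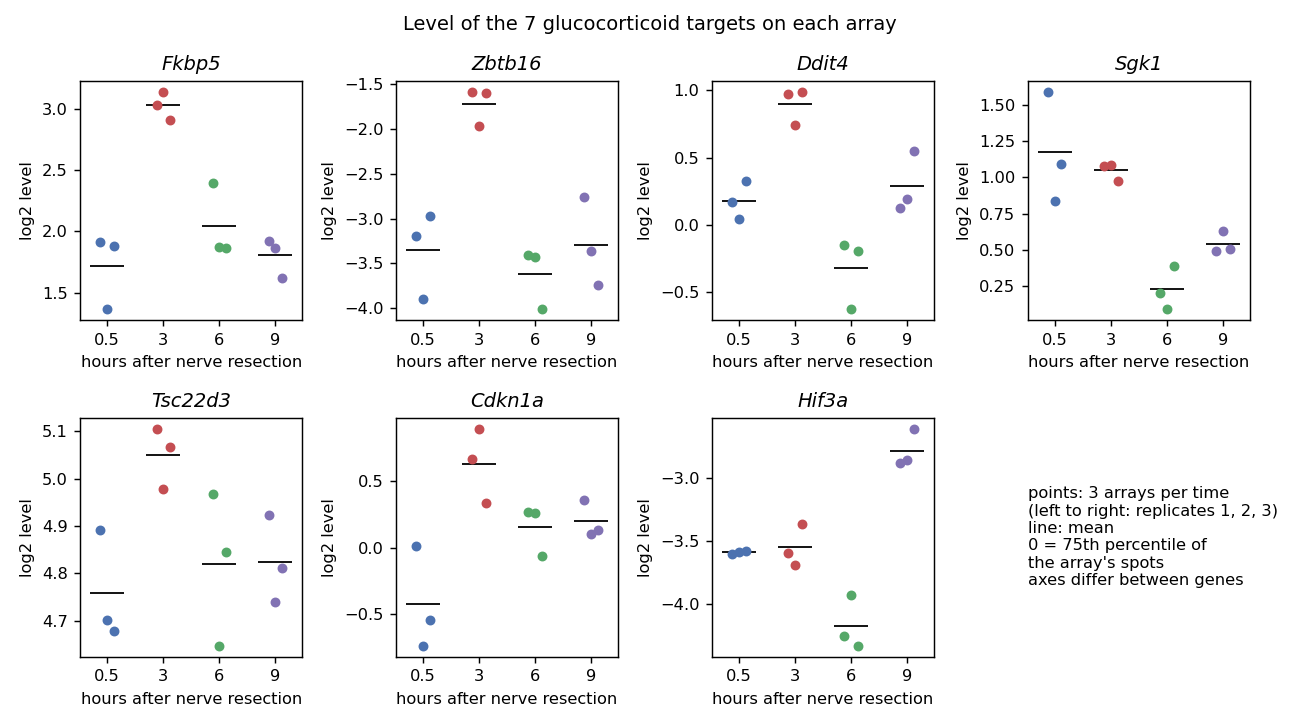
Log2 level of each of the 7 genes (y axis, 0 is the 75th percentile of the array's spots, scale differs between panels) against hours after nerve resection (x axis), with points for the 3 arrays of each time and a line at their mean. Fkbp5, Zbtb16, Ddit4 and Tsc22d3 have all 3 h points above every other point, while Sgk1 steps down after 3 h and Hif3a is highest at 9 h.

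Fkbp5 encodes the immunophilin co-chaperone that lowers the receptor's affinity for hormone, and its induction closes a short negative feedback loop. Its level at 0.5 h was 1.91, 1.36 and 1.88 on replicates 1 to 3. At 3 h the level was 3.04, 3.14 and 2.92. The 3 h arrays had an SD of 0.11 (n = 3) and lay above every other array, and the mean was 2.49-fold that at 0.5 h, a log2 difference of 1.31 ± 0.18 (SE). The level returned to 2.40, 1.87 and 1.86 at 6 h and to 1.93, 1.87 and 1.62 at 9 h. These later values overlapped those of 0.5 h, and neither 6 h (0.33 ± 0.18, adjusted p = 0.266) nor 9 h (0.09 ± 0.18, adjusted p = 0.735) passed the limma test against 0.5 h. The order of the means was 3, 6, 9 and 0.5 h, and the last 3 of these did not differ beyond their spread.

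All 3 Fkbp5 probes had their highest mean at 3 h and their lowest at 0.5 h. The differences of 3 h against 0.5 h were 1.31, 1.18 and 1.24, and those of 6 h against 3 h were -0.99, -0.76 and -0.97. The other probes stayed higher at 9 h than at 0.5 h, by 0.41 and 0.36, against 0.09 for the first. For the second probe the 9 h arrays (-0.95, -0.79 and -0.82) all lay above those of 0.5 h (-0.99, -1.42 and -1.36). For the third they overlapped, and its mean was slightly higher at 9 h than at 6 h.

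Zbtb16, also called PLZF, is a zinc finger repressor that is among the most steeply induced glucocorticoid targets in many cell types. It gave the largest 3 h differences of the 7. Its level was -3.20, -3.90 and -2.97 at 0.5 h. At 3 h it was -1.58, -1.96 and -1.60, above every other array, and the mean was 3.11-fold that at 0.5 h (difference 1.64 ± 0.30). At 6 h the level was -3.41, -3.43 and -4.01, so that the 3 h mean was 3.73-fold that of 6 h. At 9 h it was -2.76, -3.37 and -3.75, the widest spread of any gene's used probe at 1 time (SD 0.50, n = 3). Values at 0.5, 6 and 9 h overlapped throughout. The tests gave -0.26 ± 0.30 for 6 h against 0.5 h (adjusted p = 0.613), 0.06 at 9 h against 0.5 h (0.891) and, from 6 h to 9 h, 0.32 (0.467). The second probe was not well above background on the 0.5 h arrays, so its difference of 1.12 is not measured on both sides, but from 3 h to 6 h, where it was well above background on all arrays, it differed by -1.56.

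Tsc22d3 encodes GILZ, a leucine zipper protein that binds and restrains NF-kappaB and AP-1. Its level was 4.89, 4.70 and 4.68 at 0.5 h and 5.11, 4.98 and 5.07 at 3 h. The 3 h arrays were above the other 9, but by the smallest margin of the 4 genes for which this held: 1.22-fold the mean at 0.5 h, a difference of 0.29 ± 0.10. At 6 h the level was 4.97, 4.65 and 4.84 and at 9 h it was 4.92, 4.74 and 4.81. The times other than 3 h overlapped one another, and their tested differences were 0.06, 0.07 and 0.005, all with adjusted p of 0.613 or more. The second probe, the one printed above, gave about the same course with larger steps: 0.56 from 0.5 h to 3 h, then -0.57 to 6 h. No spot of any array was marked saturated, the bright Tsc22d3 probe included. That probe, the one used for the gene, read from 46350 intensity units (6 h replicate 2) to 66340 (3 h replicate 1). A missing mark does not show that so bright a probe read its steps in full, which was not tested. The 2 probes disagreed on the size of the step, and the cause was not tested.

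Hif3a encodes a member of the hypoxia-inducible factor alpha family, some of whose splice forms restrain the other members, and it is a known receptor target. Its level was -3.60, -3.59 and -3.58 at 0.5 h and -3.60, -3.69 and -3.37 at 3 h, which overlapped. At 6 h it was -4.25, -3.93 and -4.33, below all arrays of the earlier times. At 9 h it was -2.88, -2.86 and -2.61, above all 9 other arrays. Hif3a had its lowest mean at 6 h and its highest at 9 h. Of the 7 genes it had the lowest adjusted p in 2 of the 3 tested comparisons: it rose by 1.39 ± 0.12 from 6 h to 9 h (2.61-fold, limma adjusted p = 3.76e-05) and was higher at 9 h than at 0.5 h by 0.80 ± 0.12 (1.75-fold, adjusted p = 0.00116). It fell by 0.58 ± 0.12 from 0.5 h to 6 h (adjusted p = 0.0141), a call lost without 6 h replicate 1 (adjusted p = 0.0521) or without 6 h replicate 3 (0.0531). With normexp background correction none of its 3 differences was called, with differences of 0.01, 0.97 and 0.96 and adjusted p of 0.993, 0.273 and 0.564 for 6 h against 0.5 h, 9 h against 0.5 h and 9 h against 6 h.

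Sgk1 encodes the serum and glucocorticoid regulated kinase, which acts on ion channels and transporters. Its level was 1.59, 0.84 and 1.09 at 0.5 h and 1.08, 1.09 and 0.98 at 3 h. Replicate 1 of 0.5 h stood above all others and the remaining 0.5 h arrays lay around the 3 h arrays, so the means of 0.5 h and 3 h did not differ beyond their spread (difference -0.12 ± 0.16). Without 0.5 h replicate 1, Sgk1 too had its highest mean at 3 h, which made 6 of the 7. At 6 h the level was 0.20, 0.09 and 0.39, and at 9 h it was 0.49, 0.63 and 0.51. All arrays of 6 and 9 h lay below those of 0.5 and 3 h. Sgk1 fell by 0.95 ± 0.16 from 0.5 h to 6 h (1.93-fold, limma adjusted p = 0.00662) and was still lower at 9 h by 0.63 ± 0.16 (1.55-fold, adjusted p = 0.0149). The 9 h arrays were all above the 6 h arrays, by 0.32 ± 0.16, and this did not pass the test (adjusted p = 0.185). With normexp background correction the falls kept their direction (-0.96 and -0.66) with adjusted p of 0.136 and 0.0891, and with only the arrays of 0.5 and 9 h in the fit the second gave 0.0658.

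Ddit4, also called REDD1, encodes an inhibitor of the mTORC1 growth pathway that both glucocorticoids and low oxygen induce. Its level was 0.17, 0.04 and 0.33 at 0.5 h. At 3 h the level was 0.97, 0.74 and 0.99, above every other array and 1.65-fold the mean at 0.5 h (difference 0.72 ± 0.15). At 6 h it was -0.15, -0.63 and -0.20, below all arrays of 0.5 h and of 3 h, and at 9 h it was 0.12, 0.20 and 0.55. The order of the means was 3, 9, 0.5 and 6 h, of which 9 h and 0.5 h overlapped (0.11 ± 0.15, adjusted p = 0.607). Ddit4 rose from 6 h to 9 h by 0.61 ± 0.15 (1.53-fold, adjusted p = 0.0156), a call lost without 9 h replicate 3 (adjusted p = 0.0556), with median scaling (0.073), with normexp (0.22) and with only those 2 times in the fit (0.0561). The lower level at 6 h than at 0.5 h, -0.50 ± 0.15, missed the threshold (adjusted p = 0.0589) and passed it under 7 of the other settings, the replicate block among them (0.026), and without 9 h replicate 3 (0.044).

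Cdkn1a encodes p21, the inhibitor of cyclin-dependent kinases that p53 and the glucocorticoid receptor both induce. The probe used for it was spotted 10 times per array, and the SD between those spots was 0.03 to 0.09, well under the spread between arrays of a time. Its level was 0.01, -0.73 and -0.54 at 0.5 h and 0.66, 0.89 and 0.33 at 3 h. The 3 h arrays were above all 0.5 h arrays, 2.07-fold in the mean (difference 1.05 ± 0.20), but replicate 3 of 3 h lay within the range of the 9 h arrays. At 6 h the level was 0.26, 0.26 and -0.06 and at 9 h it was 0.35, 0.10 and 0.13. The mean of Cdkn1a at 9 h lay between those of 0.5 h and 3 h. The difference of 9 h against 0.5 h was 0.62 ± 0.20 (1.54-fold, limma adjusted p = 0.0385), with all 9 h arrays higher. This call was near the threshold: the adjusted p ranged from 0.00822 to 0.126 when 1 array was left out, and the call was lost in 8 of the 12 such fits. It was also lost with median scaling (adjusted p = 0.0864), with normexp (0.232) and with only those 2 times in the fit (0.0772). For 6 h against 0.5 h the difference was 0.58 ± 0.20 (adjusted p = 0.0869). That difference passed the threshold with the mean of the gene's probes (0.0384), with slide as a random block (0.016) and without 0.5 h replicate 1 (0.025). The dimmer probe, not well above background at 0.5 h, differed by -0.40 from 3 h to 6 h, against -0.47 for the probe used. At 9 h the dimmer probe was well above background on only 1 of the 3 arrays. It differed by 0.08 for 9 h against 0.5 h, where the probe used gave 0.62. For 9 h against 3 h it differed by -0.86, where the probe used gave -0.43. Whether the 2 probes part at 9 h cannot be read from values so near background. With the mean of both probes, which takes in these dim values, the difference of 9 h against 0.5 h was 0.35 and not called (adjusted p = 0.101).

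**Figure D2:**
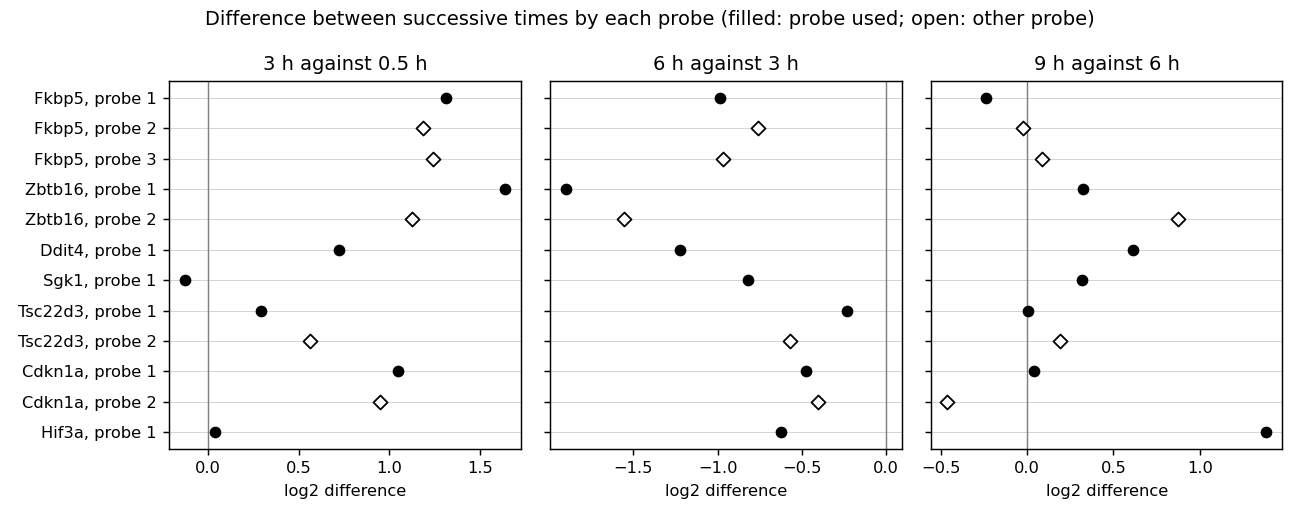
Log2 difference (x axis) between successive times for each of the 12 probes of the 7 genes (y axis, numbered within a gene), filled for the probe used for the gene and open for the others. Probes of 1 gene lie on the same side of 0 in the left and middle panels, while in the right panel (9 h against 6 h) those of Fkbp5 and Cdkn1a lie on both sides. The open Cdkn1a probe was well above background on only 1 of the 3 arrays of 9 h.

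Calls in the tested comparisons were also counted over the 7. For 6 h against 0.5 h, 0 rose and 2 fell (Sgk1 and Hif3a), where 4.07% of all genes rose and 9.31% fell. For 9 h against 0.5 h, 2 rose (Cdkn1a and Hif3a) and 1 fell (Sgk1), where 22.7% and 10.7% of all genes did. For 9 h against 6 h, 2 rose (Ddit4 and Hif3a) and 0 fell, where 19.2% and 5.93% did. With 7 genes, 2 of them amount to 28.6%. At an unadjusted limma p under 0.05, 1 rose and 3 fell for 6 h against 0.5 h. For 9 h against 0.5 h 2 rose and 1 fell, and for 9 h against 6 h 2 rose and 0 fell. Over all 29623 genes, 8658, 13119 and 11130 passed in these comparisons, in either direction. Fkbp5, Zbtb16 and Tsc22d3, whose 3 h arrays stood apart, were called in none of the 3 comparisons that leave 3 h out. The scaling bears on the split of all genes: with each array set to its median, the counts higher and lower became 3558 and 6069 for 9 h against 6 h, where the 75th percentile gave 5692 and 1756. They became 2371 and 1710 for 6 h against 0.5 h (1206 and 2757 in the text's scaling) and 4364 and 4952 for 9 h against 0.5 h (6718 and 3163). That scaling shifted the median of all genes for 9 h against 6 h from 0.11 to -0.10. It kept the direction of every called member, but lost the calls of Cdkn1a for 9 h against 0.5 h (limma adjusted p = 0.0864) and Ddit4 for 9 h against 6 h (0.073).

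The members differed among themselves in course. Over the 12 arrays, with each gene centred on its own mean, the closest pair was Fkbp5 and Cdkn1a, with a root mean square difference of 0.34, followed by Tsc22d3 and Cdkn1a at 0.35. The farthest apart were Zbtb16 and Hif3a, at 0.92. Because this measure counts size as well as shape, genes of small range sit closer together.

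Among 10356 other named genes detected on every array, the 8 with the course nearest to the members' mean were Tmem140, Arrdc2, Itga9, Pdzd3, Slc2a1, Map3k6, Ankrd37 and Ppp1r9a, with root mean square differences of 0.11 to 0.18 over the 12 arrays. All 8 had their highest mean at 3 h, which follows largely from how they were picked, since the members' mean course is itself highest at 3 h. Tmem140 was at -1.94, -2.25 and -1.76 at 0.5 h, and at -1.46, -1.27 and -1.30 at 3 h. It was at -1.96, -2.12 and -2.19 at 6 h and at -1.63, -1.92 and -1.94 at 9 h, so its 3 h arrays lay above the rest. For single members, Errfi1, an inhibitor of EGF receptor signalling that is itself on the list of glucocorticoid targets, was nearest to Sgk1 (0.12). Arrdc2 was nearest to Ddit4 (0.20), and Fkbp5 was the nearest of all to Zbtb16 (0.41). The nearest to Fkbp5 was the sodium proton exchanger gene Slc9a3 (0.20), and the nearest to Cdkn1a was Nos3, the endothelial nitric oxide synthase (0.21). Gk, which encodes glycerol kinase, was nearest to Tsc22d3 (0.06). The 3 nearest to Hif3a (Olr1455, Hoxc5 and Taar8c, at 0.07 to 0.08) all had their lowest mean at 6 h and their highest at 9 h, as Hif3a did. By their names, Olr1455 is an olfactory receptor gene and Taar8c a trace amine receptor gene. Hif3a was read by a single probe of low level, from -4.33 at 6 h to -2.61 at 9 h. Whether its fall and rise belong to Hif3a or to a course that such probes share between slides was not tested.

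Other known glucocorticoid targets, 35 of 37 on a list measured, moved in part with the members. The mean was highest at 3 h for 19 of them (54.3%, against 22.3% of all genes). At 3 h against 0.5 h, 8 rose and 3 fell, 22.9% and 8.57%, where 9.69% and 13.0% of all genes did, and the list's median difference was 0.18 (all genes, 0.02). From 3 h to 6 h, 0 rose and 9 fell (25.7%), where 5.93% and 4.45% of all genes did, and the median was -0.32 (all genes, -0.07). Over all genes, median scaling turned the split at 3 h against 0.5 h from 2869 higher and 3862 lower to 4421 and 2897, and cyclic loess scaling that from 3 h to 6 h from 1756 and 1319 to 2100 and 944. The list was drawn up with earlier results of these data known, so its counts are no independent evidence of its direction. Without 3 h replicate 1 the rise was called for 3 genes and the fall at 3 h against 0.5 h for 1, and without 3 h replicate 2 for 4 and 2. Leaving out 0.5 h replicate 2 gave 4 and 3, and leaving out 0.5 h replicate 3 gave 6 and 1. The fall from 3 h to 6 h was called for 5 genes without 3 h replicate 1 and for 5 without 6 h replicate 3. With normexp background correction 0 of the 35 were called for 3 h against 0.5 h and 2 between 3 h and 6 h, and with slide as a random block 20 and 15 were. Over all 29623 genes, normexp called 134 higher and 550 lower, then 269 and 51. The slide block called 6907 and 6938, then 3251 and 4677. At an unadjusted limma p under 0.05, 16 of the 35 rose and 3 fell at 3 h against 0.5 h. From 3 h to 6 h, 0 rose and 15 fell. Over all 29623 genes, 10598 and 7732 passed in these comparisons, in either direction. Replicates 1 and 2 of 3 h were also high in muscle and fat markers, whose part in these counts was not tested.

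Klf9 and Klf15, Krüppel-like factors that the receptor induces directly, rose from 0.5 h to 3 h by 0.51 ± 0.13 (limma adjusted p = 0.0196) and 0.65 ± 0.19 (adjusted p = 0.0355). Arrdc2, an arrestin-domain gene, rose by 0.88 ± 0.16 (adjusted p = 0.00491), from -3.68, -4.36 and -4.01 to -3.00, -3.32 and -3.11. Map3k6, a stress kinase gene, rose by 0.75 ± 0.19 (adjusted p = 0.0198) and Angptl4, a lipoprotein lipase inhibitor, by 0.67 ± 0.13 (adjusted p = 0.00532). Sult1a1, a sulfotransferase gene, rose by 0.53 ± 0.16 with an adjusted p of 0.0427 that rose above 0.05 when any of 10 arrays was left out. Of the muscle atrophy ligase gene Fbxo32 and the fuel switch kinase gene Pdk4, no 0.5 h array was well above background, so the 3 h level was at least 1.56-fold higher for Fbxo32 and at least 1.06-fold higher for Pdk4, against the lowest signal well above background on each array. The genes that fell at 3 h were Arrdc3, to 0.468-fold its 0.5 h mean (adjusted p = 4.45e-05), Txnip by 0.67 ± 0.17 and Dusp1 by 0.50 ± 0.14. Arrdc3 and Txnip, both of the arrestin-domain family, were lower at 9 h than at 6 h, with differences of -0.62 (adjusted p = 0.000627) and -0.55 (adjusted p = 0.0437). This last call was lost without any 1 of 8 arrays (adjusted p up to 0.142), and Txnip was not called at 6 h against 0.5 h (-0.34, adjusted p = 0.23). Of the calls at 3 h against 0.5 h, those of Klf15, Txnip and Dusp1 were each lost without any 1 of 4 arrays (adjusted p up to 0.107, 0.0738 and 0.106), those of Klf9 and Pdk4 without any 1 of 3 (0.0668 and 0.0644) and that of Map3k6 without 3 h replicate 1 or 2 (0.0613).

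Of these other targets, Klf15, Arrdc2, Map3k6 and Fbxo32 had all 3 h arrays above the other 9, as Fkbp5, Zbtb16, Ddit4 and Tsc22d3 did, and each fell from 3 h to 6 h. Klf15 fell by 1.29 ± 0.19 (adjusted p = 0.00226), Arrdc2 by 1.14 ± 0.16 (adjusted p = 0.00197), Fbxo32 by 0.98 ± 0.22 (adjusted p = 0.0222) and Map3k6 by 0.96 ± 0.19 (adjusted p = 0.011). With normexp the difference of Fbxo32 turned to 0.092, and its call was lost without any 1 of 4 arrays (adjusted p up to 0.0763). Nfkbia and Errfi1, like Sgk1, had overlapping arrays at 0.5 h and 3 h and lower ones after. Nfkbia, the inhibitor of NF-kappaB, was at 2.50, 2.12 and 2.33 at 0.5 h and at 2.41, 2.34 and 2.34 at 3 h. At 6 h it was at 1.06, 1.03 and 1.19, a fall of 1.27 ± 0.09 from 3 h (adjusted p = 2.46e-05), and Errfi1 fell by 0.92 ± 0.15 over the same interval (adjusted p = 0.00355). Per1, a clock gene with a receptor element of its own, was called in no comparison. Its difference was 0.17 ± 0.29 for 3 h against 0.5 h (adjusted p = 0.71) and -0.94 ± 0.29 for 6 h against 3 h (adjusted p = 0.067).

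For 6 h against 0.5 h, 0 of the 35 rose and 4 fell (Dusp1, Nfkbia, Errfi1 and Arrdc3). The 4 were 11.4%, where 4.07% of all genes rose and 9.31% fell. At an unadjusted limma p under 0.05, 2 of the 35 rose and 6 fell, where 8658 of all 29623 genes passed in either direction. At 9 h against 0.5 h, 2 rose (Angptl4 and Pck1) and 5 fell, Txnip joining those 4, which is 5.71% and 14.3% where 22.7% and 10.7% of all genes did. Between 6 h and 9 h, 4 rose and 2 fell (11.4% and 5.71%, against 19.2% and 5.93% of all genes), and these counts became 2 and 1 without 6 h replicate 2, without 6 h replicate 3 or without 9 h replicate 3. Those that rose were Nfkbia, Pck1, Arrdc2 and Mertk. The call of Arrdc2 was lost without any 1 of 4 arrays (adjusted p up to 0.0833) and that of Mertk without any 1 of 6 (up to 0.138). Pck1, a gluconeogenic enzyme gene that was well above background on only 1 of the 3 arrays of 0.5 h, rose by 1.06 ± 0.19 from 6 h to 9 h (adjusted p = 0.00275).

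**Figure D3:**
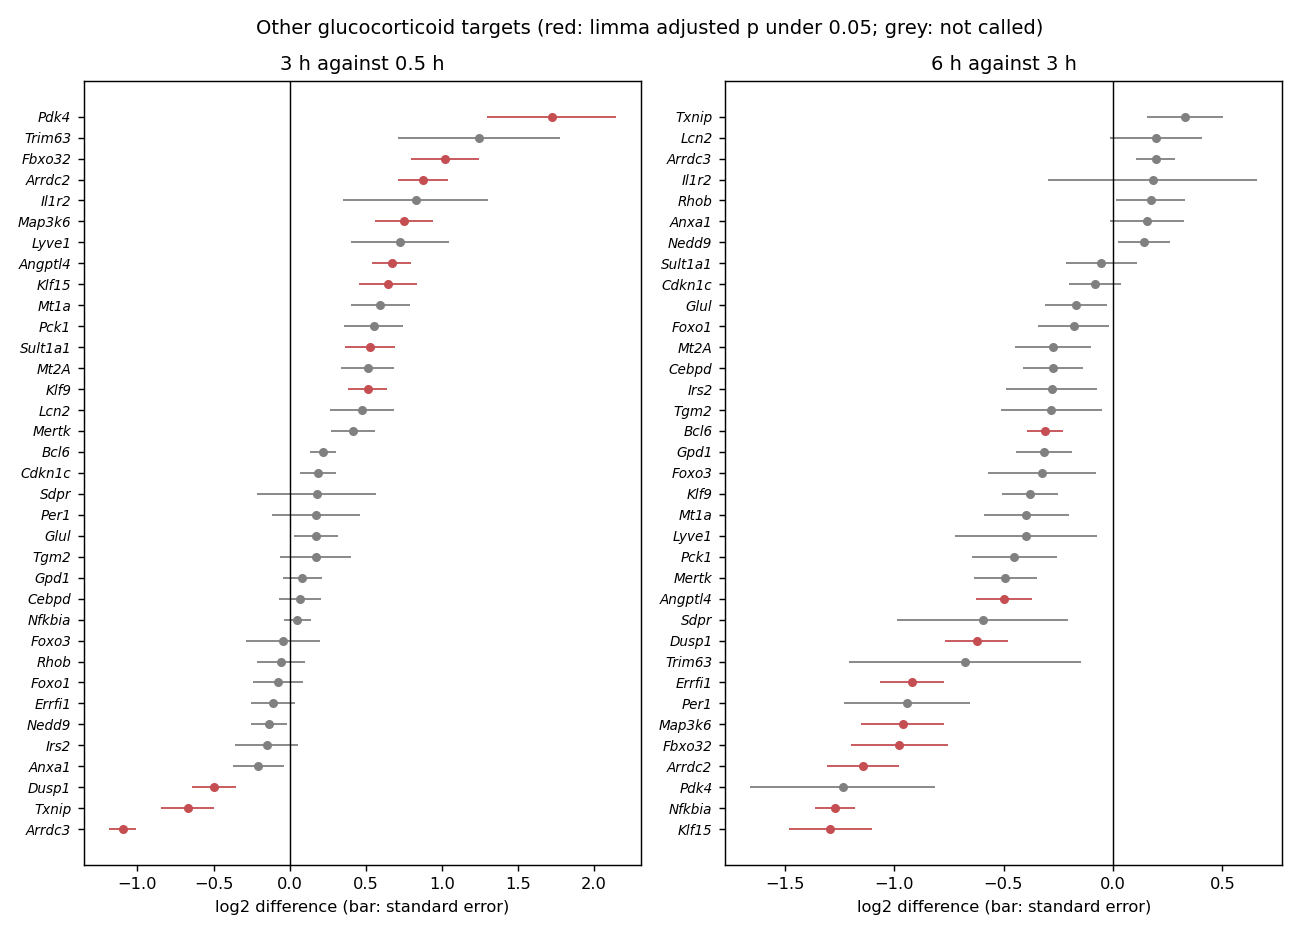
Log2 difference with its standard error (x axis) for each of the 35 other glucocorticoid targets (y axis, sorted by the difference) for 3 h against 0.5 h (left) and 6 h against 3 h (right), red where the limma adjusted p is under 0.05. In the left panel 8 red points lie above 0 and 3 below, and in the right panel all 9 red points lie below 0.

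The mean of Nr3c1, the receptor gene, was lowest at 3 h. Its level was 1.32, 1.29 and 1.02 at 0.5 h, 0.99, 1.04 and 0.85 at 3 h and 1.28, 1.32 and 1.36 at 6 h. Its difference at 3 h against 0.5 h did not pass the test (-0.25 ± 0.09, adjusted p = 0.0619), and it rose from 3 h to 6 h by 0.36 ± 0.09 (adjusted p = 0.0264), a call lost without any 1 of 5 arrays (highest adjusted p = 0.0996). Other probes of Nr3c1 gave -0.52 and -1.2 for 3 h against 0.5 h, and 0.39 and 1.01 for 6 h against 3 h. Of the receptor, steroid handling and chaperone genes, 18 measured, 0 rose and 3 fell at 3 h against 0.5 h, led by the coactivator genes Ncoa1 (-0.57 ± 0.05) and Ncoa2 (-0.54 ± 0.08). The 3 were 16.7%, where 9.69% of all genes rose and 13.0% fell. At an unadjusted limma p under 0.05, 3 of the list rose and 7 fell, where 10598 of all 29623 genes passed in either direction. Between 3 h and 6 h, 2 of the list rose and 2 fell, the latter being the Hsp90 genes Hsp90aa1 by 0.35 ± 0.07 and Hsp90ab1 by 0.42 ± 0.07. That is 11.1% in each direction, where 5.93% of all genes rose and 4.45% fell. Other probes of Hsp90aa1 gave -0.18, -0.14 and 0, and those of Hsp90ab1 gave -0.22 and 0.46, so the probes disagreed. The mineralocorticoid receptor gene Nr3c2 (-0.23 ± 0.09, adjusted p = 0.0834), the corticosterone-activating enzyme gene Hsd11b1 (0.27 ± 0.10, adjusted p = 0.0718) and the co-chaperone gene Fkbp4 (0.19 ± 0.07, adjusted p = 0.0662) were not called at 3 h against 0.5 h. Other probes gave -0.16 for Nr3c2, -0.21 for Hsd11b1, and 0.04 and -0.03 for Fkbp4, so those of Hsd11b1 and Fkbp4 disagreed. Fkbp4, the near relative of Fkbp5, differed by 0.19 where Fkbp5 differed by 1.31.

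Of 15 measured paralogs of the members, 1 rose and 2 fell at 3 h against 0.5 h. These were 6.67% and 13.3%, near the 9.69% and 13.0% of all genes. From 3 h to 6 h 0 rose and 1 fell (6.67%), where 5.93% and 4.45% of all genes did. At an unadjusted limma p under 0.05, 0 paralogs rose and 3 fell from 3 h to 6 h, where 7732 of all 29623 genes passed in either direction. The riser was Sgk3, a kinase of the Sgk1 family, by 0.70 ± 0.16 (adjusted p = 0.0122), and it fell again by 0.63 ± 0.16 at 6 h, a difference that normexp turned to 0.031. Tsc22d1 (-0.20 ± 0.06) and Hif1a (-0.30 ± 0.08) were the genes that fell, though another probe of Hif1a gave 0.31. The call of Tsc22d1 was lost without any 1 of 11 arrays (adjusted p up to 0.132) and that of Hif1a without any 1 of 3 (up to 0.0593), and the fall of Sgk3 without any 1 of 6 (up to 0.107). Cdkn1a, Ddit4 and Hif3a also belong to other responses. Of 17 measured p53 targets other than Cdkn1a, 1 rose (Gadd45a, 0.34 ± 0.09) and 2 fell (Btg2, -0.54 ± 0.14, and Bax, -0.28 ± 0.05, with 0.04 for another probe of Bax) at 3 h against 0.5 h. These were 5.88% and 11.8%, near the 9.69% and 13.0% of all genes. Leaving out 1 array ended the call of Gadd45a for any of 3 arrays and that of Btg2 for any of 4 (adjusted p up to 0.0605 and 0.069). Of 17 measured hypoxia targets, 3 rose at 3 h and the same 3 fell by 6 h: the glucose transporter gene Slc2a1 (0.56 ± 0.07, then -0.49 ± 0.07), Ankrd37 (0.48, then -0.61) and Mxi1 (0.49, then -0.51). They were 17.6% of the list, where 9.69% of all genes rose at 3 h and 4.45% fell from 3 h to 6 h. At an unadjusted limma p under 0.05, 8 hypoxia targets rose and 0 fell at 3 h against 0.5 h. From 3 h to 6 h, 0 rose and 6 fell. Over all 29623 genes, 10598 and 7732 passed in these comparisons, in either direction. From 6 h to 9 h, 4 hypoxia targets rose (23.5%, near the 19.2% of all genes) and 0 fell. At an unadjusted limma p under 0.05 the counts were the same, where 11130 of all 29623 genes passed in either direction. The 4 were Car9 by 1.09 ± 0.13 (adjusted p = 0.000172), Hk2 by 0.85 ± 0.22 (a call lost without 6 h replicate 3 or 9 h replicate 2, adjusted p up to 0.0692), Pfkfb3 by 0.58 ± 0.12 and Egln3 by 0.28 ± 0.06. Of 10 measured genes of the amino acid and endoplasmic reticulum stress responses, 2 rose at 3 h (Chac1 by 0.41 ± 0.10 and Ppp1r15a by 0.34 ± 0.09) and 2 fell from 3 h to 6 h (Hspa5 by 0.41 ± 0.09 and Trib3 by 0.32 ± 0.07). That is 20% each time, where 9.69% of all genes rose at 3 h and 4.45% fell from 3 h to 6 h. The calls of Ppp1r15a and Trib3 were each lost without any 1 of 4 arrays (adjusted p up to 0.0729 and 0.0627), and that of Chac1 without 3 h replicate 1 (0.0649).

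Upstream sequence was looked at in RefSeq windows of 300 bases on build GRCr8, from 250 bases before each gene's start to 50 after it. They held 6 of the 7 members in 11 windows, and Zbtb16 was not matched. The receptor element was searched as the half-site AGAACA, any 3 bases and the half-site TGTTCT, on both strands. With up to 2 mismatches in the half-sites it was in 0 of the 11 windows, and in 1.87% of all 33469 windows. Single half-sites (AGAACA or TGTTCT) were also in 0 of the 11, against 20.7% of all windows. The core ACGTG, searched on both strands, was in 1 of the 11 windows, that of Ddit4, against 19.3% of all windows, and the overlapping E-box CACGTG was in 0, against 6.42%. Of 27 windows of 26 other targets, 2 held the receptor element with up to 2 mismatches, those of Trim63 (1 mismatch, 220 bases before the start) and Sult1a1 (2 mismatches, 89 before). They are shown as the nearest matches, with the element in capitals, and for Ddit4 the 250 bases before the start are shown because its window was the one member window with the core, which is in capitals.
Trim63, element at 220 bases before the start: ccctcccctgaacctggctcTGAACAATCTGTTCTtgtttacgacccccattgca
Sult1a1, element at 89 bases before the start: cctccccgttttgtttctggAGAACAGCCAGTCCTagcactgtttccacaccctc
Ddit4, 250 bases before the start: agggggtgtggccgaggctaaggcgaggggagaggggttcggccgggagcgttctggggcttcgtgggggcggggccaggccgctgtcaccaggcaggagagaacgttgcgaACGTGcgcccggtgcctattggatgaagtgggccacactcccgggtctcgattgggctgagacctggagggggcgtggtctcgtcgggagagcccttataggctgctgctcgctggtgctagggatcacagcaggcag
The windows lie at chr5:151816996-151817050 for Trim63 on the plus strand, and on the minus strand at chr1:190706167-190706221 for Sult1a1 and chr20:28437038-28437287 for Ddit4. Trim63 was at -0.16, -0.26 and -1.93 on the 3 h arrays and between -2.12 and -1.87 at 0.5 h, and was not called (1.24 ± 0.53, adjusted p = 0.123). A match is a description of letters, and the lack of one says only that these letters are not in this window.

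Markers of muscle and fat differed between arrays of 1 time. Summed levels of 15 measured skeletal muscle markers, all well above background on all 12 arrays, ranged from 66.6 to 149 at 0.5 h, from 75.2 to 353 at 3 h, from 80.8 to 631 at 6 h and from 89.4 to 268 at 9 h (linear signal relative to the 75th percentile). Those of 5 measured adipocyte markers, 4 of them well above background on all 12 arrays, ranged from 1.65 to 2.16 at 0.5 h, from 1.35 to 7.22 at 3 h, from 2.41 to 5.03 at 6 h and from 2.22 to 7.16 at 9 h. At 3 h, replicates 1 and 2 were high and replicate 3 was low in both lists. The mean of the 7 members, each centred on its own mean, was 0.58, 0.51 and 0.52 on these 3 arrays, against -0.45 to -0.23 at 6 h. With any 1 of the 12 arrays left out, the members' median difference of 3 h against 0.5 h stayed between 0.65 and 0.80. The members were chosen for their level at 3 h, and the part of muscle and fat tissue in it was not tested. Trim63, which muscle also expresses, was high on the same 2 arrays of 3 h and low on replicate 3. Summed neutrophil markers, 6 measured, were 1.54 to 2.98 at 3 h and 2.61 to 16.7 at 6 h, the highest on 6 h replicate 3, and their part in the differences between 3 h and 6 h was not tested. For 6 h against 3 h, median differences were -0.12 for sensory neuron, -0.14 for satellite glia, -0.07 for Schwann cell and -0.23 for endothelial markers. All genes had -0.07 and the members -0.82. Medians were positive for fibroblast and meningeal (0.21), macrophage (0.14), lymphocyte (0.13) and red blood cell markers (0.3). Of the satellite glia markers, 1 was called higher and 1 lower. Summed sensory neuron markers were 534 to 569.7 at 6 h, below every other array, and 578 to 659 at the other times. Summed Schwann cell markers, 6 measured, were 402 to 512 at 0.5 h, 353 to 379 at 3 h and 338 to 360.2 at 6 h. Of 6 satellite glia markers the mean centred log2 level was 0.02 to 0.10 at 3 h and -0.17 to -0.10 at 6 h, and of 6 endothelial markers -0.02 to 0.06 and -0.23 to -0.07. The part of these markers in the members' fall from 3 h to 6 h was not tested.

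**Figure D4:**
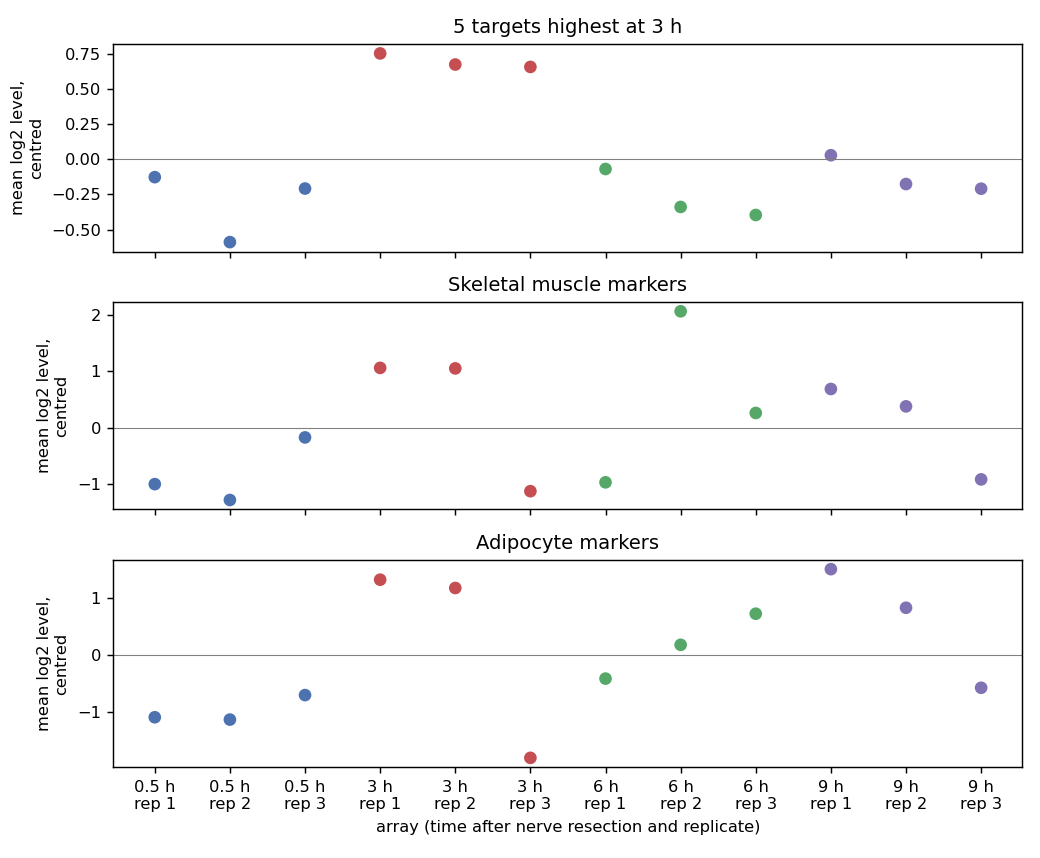
Mean log2 level, each gene centred on its own mean over the 12 arrays (y axis), of the 5 targets with their highest mean at 3 h, of skeletal muscle markers and of adipocyte markers on each array (x axis, time and replicate). The 5 targets lie at 0.66 to 0.75 on all 3 h arrays. Both marker lists are high on replicates 1 and 2 of 3 h and low on replicate 3.

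Slides and scan days limit the comparisons. One slide and scan day held the 0.5 h group, a different slide and day the 9 h group, and 3 slides read on a single day the 3 h and 6 h groups, with all 3 h arrays on 1 of them and the 6 h arrays on the other 2. No slide held 2 times, so a difference between times, the drop of all 7 members from 3 h to 6 h included, and a difference between slides cannot be told apart. Only 3 h and 6 h shared a scan day. The 0.5 h slide also had more local background, with a median of 64 to 86 intensity units per array, where the other slides had 37 to 45.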

How the data were processed

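Per the labels' protocols, total RNA of the ganglia was amplified, labelled with Cy3 and hybridised to 1-colour Agilent arrays. The deposited intensity values, 1 per spot after background subtraction, came from Agilent Feature Extraction 10.5.1.1, per the file headers. The series-wide values deposited by the authors equal them. How the authors scaled arrays is not stated in the labels used here.

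Outlier and control spots were left out, log2 was taken and each array's 75th percentile subtracted. Spots of a probe were averaged. Kept were 34837 of 41012 probes, those detected well above background throughout 1 or more of the times, and a gene is its kept probe of highest mean. Group means were fitted over 29623 genes and 12 arrays with limma 3.58.1 in R 4.3.3 (package data.table, version 1.17.8), without a block, since replicate numbers do not pair the samples. The script was tested on simulated data. With 3 arrays a time, their number limits the precision.

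The members and all gene lists were chosen with earlier results of these data known. Named genes are all members, Nr3c1, Nr3c2, Hsd11b1, Fkbp4 and Per1, up to 8 called other targets and 4 called genes of each further list per comparison, and the genes nearest in course (8 to the members' mean, 3 to each member). Trim63, and other targets past that number, were named after their values were seen. Alternatives were other scalings, background corrections, probe filters and rules, variance models, blocks and leaving out each array. Scaling to the median of genes well above background on all arrays was added after the data were seen.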

Additional observations from a re-analysis of the deposited data

How the results depend on the processing

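Under all 13 alternatives that kept every array, 5 members had their highest mean at 3 h, and the members' median of 9 h against 3 h (-0.51) moved only with median scaling, to -0.69. Calls among the members changed from 2 (6 h against 0.5 h), 3 (9 h against 0.5 h) and 2 (9 h against 6 h) to 0, 0 and 0 with normexp. The first became 4 with slide as a random block, the second 1 with only the 2 times compared, and the third 1 with that setting and 1 with median scaling. Over all 29623 genes, normexp called 0 higher and 1 lower in the first comparison. It called 71 and 351 in the second and 33 and 130 in the third. The slide block called 3307 and 5766, 11241 and 5638, and 9417 and 3087. Calls among other targets at 3 h against 0.5 h, 6 h against 3 h, 9 h against 6 h, 6 h against 0.5 h and 9 h against 0.5 h (11, 9, 6, 4 and 7) became 0, 2, 0, 1 and 3 with normexp and 20, 15, 10, 9 and 16 with the slide block, whose estimated correlation was -0.255, below 0. Median scaling gave 3 for 9 h against 6 h, and normexp with a capped local background 8 for 6 h against 0.5 h. Related lists had 26 calls in all, 2 with normexp and 62 with the slide block. Values that reversed were Hif3a for 6 h against 0.5 h (0.01), Fbxo32 (0.092) and Sgk3 (0.031) for 6 h against 3 h, all with normexp, and Hif1a for 3 h against 0.5 h with the mean of its probes (0.004). The cause of these changes was not tested. Leaving out 1 array gave 1 to 3, 2 to 3 and 1 to 3 calls among members in the order above, 4 to 12, 5 to 11, 3 to 8, 4 to 5 and 6 to 9 among other targets, 17 to 28 in the related lists (17 without 3 h replicate 1), and medians of 0.65 to 0.80, -0.90 to -0.75 and -0.57 to -0.48 for 3 h against 0.5 h, 6 h against 3 h and 9 h against 3 h. Same-numbered arrays deviated together weakly (correlations -0.13 to 0.22 over 18 pairs). With the replicate block 3, 3 and 2 members were called, and 13, 8, 6, 4 and 8 other targets. Detection limits the 0.5 h arrays: 64.1 to 68.3% of spots were well above background there, against 82.9 to 85.9% on the others.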
